A study of Homo sapiens with 3 samples.

Results

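The 5′ domain of 18S ribosomal RNA was examined in eCLIP data for METTL5, an RNA methyltransferase. METTL5 methylates a single adenosine of 18S (N6-methyladenosine, m6A). The domain was taken as positions 1 to 667 of 18S, which gave 667 positions of the 1869 of 18S and of the 7218 positions of 4 rRNAs in the deposited table. Its members were fixed by position along the rRNA and not by their measured values. Earlier results of these data were, however, known when the domain was chosen. Each value was the number of reads that covered 1 position. The libraries came from the human embryonic kidney line 293T. The 2 eCLIP libraries, replicates 1 and 2, were from stable METTL5-HA lines, in which METTL5 carries an HA tag. The single Input library was labelled WT. All cells were crosslinked with UV light, and RNA was partly digested with RNase I. In eCLIP the RNA that stays attached to a protein pulled down through its tag is sequenced, and an Input library is meant to give the RNA without that enrichment. Since Input was labelled WT and the eCLIP libraries METTL5-HA, each ratio to Input may also compare different lines, and the effect of the line and of the pulldown cannot be told apart. The sources used here do not say whether each HA-tagged line is 1 clone or which promoter drives the tagged protein. A pulldown from untagged cells was not analysed here, so RNA that sticks to the beads without METTL5-HA has no measured level.

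The mature 18S rRNA is the RNA of the small (40S) ribosomal subunit and folds into 4 domains. The 5′ domain builds most of the body of the subunit, and helix 18, one of its last helices, carries a conserved loop of the decoding centre. The target of METTL5 lies at the other end of the molecule, in helix 44, and the adenosines dimethylated by DIMT1 lie beside it, in the loop of helix 45. METTL5 works with TRMT112, a small partner protein that keeps it stable. 18S is transcribed from many near-identical gene copies, which these counts cannot tell apart. 5S, an rRNA of the large subunit that is transcribed apart from the others, served as the scale between libraries.

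The 4 rRNAs together had a summed depth of 17574237 in the first eCLIP library, 6930845 in the second and 42783485 in Input, and 28S held 95.3%, 96.6% and 72.5% of it. The summed depth of 5S was 25500 and 8100 in the eCLIP libraries, which is exactly 340 and 108 times the 75 nt that a read spanned, and the highest 5S depth was also 340 and 108. In Input it was 64448, or 859 reads. The scale therefore rested on 340 reads (exact Poisson 95% interval 305 to 378), 108 reads (88.6 to 130) and 859 reads (803 to 918). Depths below are given as reads, or as reads per 100 reads on 5S, and the scale sets the change of 5S to 0 by construction. Intervals cover counting error only, and duplicates from PCR would narrow them falsely. Separate cultures are not stated for the eCLIP libraries, so their spread, and every p-value resting on it, may be technical.

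Over the whole 5′ domain, METTL5-HA eCLIP held little RNA in comparison with Input. The average position was covered by 224 reads in eCLIP replicate 1, by 78.8 in eCLIP replicate 2 and by 5483 in Input. Both eCLIP libraries lay far below Input also after scaling. Per 100 reads on 5S replicate 1 had a mean of 65.8 (exact binomial 95% interval 58.6 to 74.0), replicate 2 one of 73.0 (59.5 to 90.2) and Input one of 638 (597 to 684). The eCLIP intervals overlapped each other and lay apart from that of Input. Relative to Input, the log2 ratio of replicate 1 was -3.28 and that of replicate 2 was -3.13, a mean of -3.20 ± 0.106 (SD, n = 2), or 9.70-fold and 8.74-fold less than Input. Input was deeper than both eCLIP libraries at 667 of 667 positions on this scale. About 1989 reads in replicate 1 and 701 in replicate 2 lay on the domain, against 48765 in Input.

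Input depth itself had a form that bears on these ratios. It stayed under 4000 reads at all of the first 150 positions and at 159 positions of the domain in all, and first reached 4000 at position 156. It lay at 7500 reads or more at 157 positions (23.5%), in long level stretches, and never passed 7748 in the domain. If Input depth was limited there, the ratios at those positions are upper bounds. At the 159 positions with Input under 4000 the log2 ratio of mean depth was -4.01 in each replicate, lower than over the whole domain. Since 150 of these are the first 150 positions, this value is mostly that of the 5′ end. It cannot tell a limit on depth apart from position along the rRNA.

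**Figure D1:**
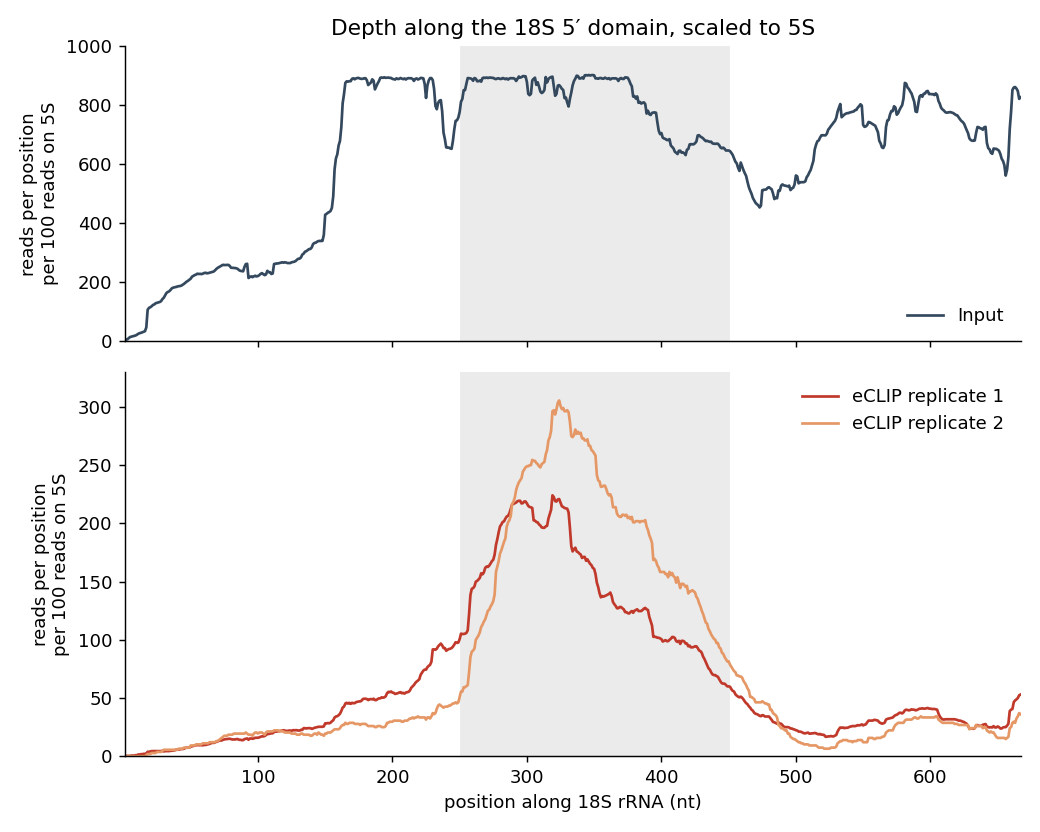
Reads covering each position of the 18S 5′ domain per 100 reads on 5S (vertical axes, linear and different in the 2 panels) against position along 18S in nt, for Input (top) and both eCLIP libraries (bottom). The grey band marks positions 251 to 450, which held 66.4% and 77.8% of the domain's eCLIP depth, and Input runs level near its highest value of 902 over several stretches.

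Depth along the domain was uneven in eCLIP. It formed a broad hump, taken here as positions 251 to 450, with lower mean coverage on both sides. These edges follow the 50-nt windows. In replicate 1 the 5′ edge was gradual, with a mean of 259 reads at 201 to 250 and 293 at 401 to 450. Replicate 2 had 39.6 and 138 reads there. Among all runs of 4 adjacent 50-nt windows in the domain, 251 to 450 was the deepest in both eCLIP replicates, while 201 to 400 was the deepest in Input. These runs differ only in holding 401 to 450 or 201 to 250. The window 201 to 250 held 8.67%, 3.77% and 9.70% of the domain's depth in replicate 1, replicate 2 and Input. The window 401 to 450 held 9.81%, 13.1% and 7.81%, so the choice was close in replicate 1 and Input. This stretch spans 30.0% of the domain. It held 66.4% (replicate 1) and 77.8% (replicate 2) of the domain's depth in eCLIP, and 38.3% in Input. It was chosen from these depths, so the shares are a description without a test. Mean depth in the stretch was 495 reads in replicate 1, 205 in replicate 2 and 7004 in Input, against 107, 24.98 and 4832 in the rest of the domain. The stretch was thus 4.61 and 8.19 times as deep as the rest of the domain in eCLIP, and 1.45 times in Input.

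The edges of the hump differed between the eCLIP libraries. In replicate 1 the depth first reached 50% of the domain's maximum at position 257 and last held it at 393. In replicate 2 these positions were 277 and 412. The hump of replicate 2 therefore lay further towards the 3′ side. The deepest position was 319 in replicate 1, with 762 reads (replicate 2 had 320 and Input 7699 there). In replicate 2 it was 324, with 330 reads, where replicate 1 had 751 and Input 7453. The deepest position of Input, 346, lay in the same stretch, with 7748 reads, and had 568 and 288 reads in eCLIP. The shallowest position was position 1 in all 3 libraries, at 0, 0 and 36 reads. In replicate 2 it shared that value with 15 neighbours, since positions 1 to 16 were all at 0, which allows up to 3 reads at each.

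Set against Input, the stretch from 251 to 450 had a log2 ratio of -2.49 and -2.11 in the 2 replicates (-2.30 ± 0.269, SD, n = 2). The 250 positions before it had -3.83 and -4.48 (-4.15 ± 0.462), and the 217 positions after it, 451 to 667, had -4.46 and -4.71 (-4.58 ± 0.172). Even its highest single positions stayed below Input. With a pseudocount of 1 read, the highest ratio of a position was -1.92 at 321 in replicate 1 and -1.42 at 331 in replicate 2. The lowest was -5.42 at position 528 in replicate 1, where 58 reads lay against 6365 in Input. In replicate 2 it was -6.61 at position 525, with 7 reads against 6205. Input lay at 7500 reads or more at 97 of the 200 positions of the hump, at 59 of the 250 before it and at 1 of the 217 after it. A limit on Input depth would thus act on the hump more than on the positions after it. The part of such a limit in the difference between hump and flanks was not tested.

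In 50-nt windows, all 13 windows that lie wholly in the domain were lower in eCLIP than in Input (Benjamini-Hochberg adjusted p under 0.05 over all 147 windows of the 4 rRNAs, edgeR's quasi-likelihood test, 5S scale). Of all 147 windows, 34.7% were called lower and 2.72% higher. The window from 651 to 700, with 17 of its 50 positions in the domain, was also lower. The log2 fold changes of the 13 windows ran from -5.44 to -1.89, with a median of -3.87, while the median of all windows was -0.38. Their highest adjusted p was 0.000513. The fit has 1 residual degree of freedom, takes its spread from the 2 eCLIP libraries and assumes that Input varies likewise, and neighbouring windows share reads. Since the prior degrees of freedom were estimated as infinite, no window kept a dispersion of its own.

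**Figure D2:**
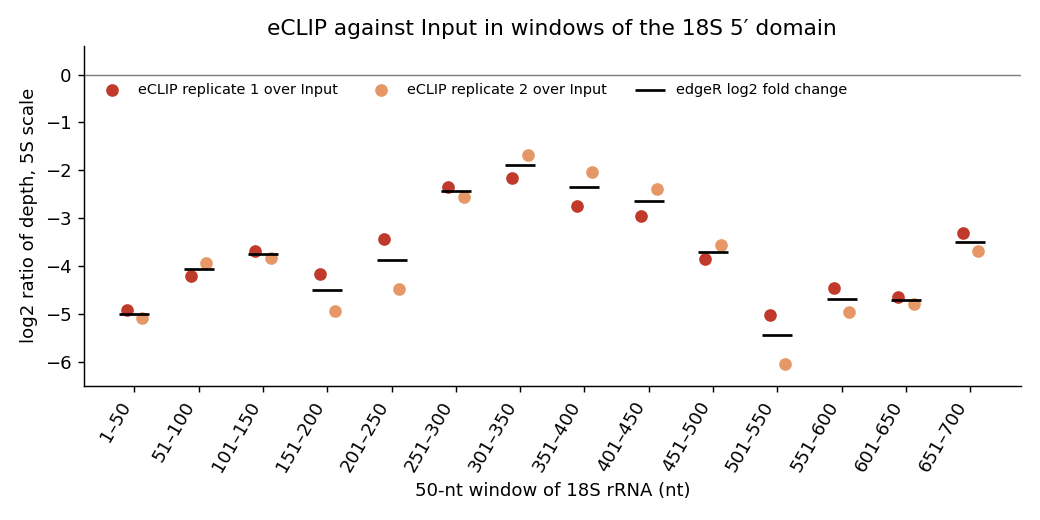
Log2 ratio of depth in eCLIP to Input on the 5S scale (vertical axis) in each 50-nt window of the domain (horizontal axis), with a point for each eCLIP replicate and a bar for the edgeR log2 fold change. All points lie below 0, the 4 windows from 251 to 450 lie highest, and 501 to 550 lies lowest.

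The window least reduced was 301 to 350, in the middle of the hump. Its mean depth was 664 reads in replicate 1, 295 in replicate 2 and, in Input, 7469. Both eCLIP values were the highest of the domain's windows. Its log2 fold change was -1.89 (edgeR adjusted p = 0.000513), a level 3.71-fold under Input. Among all 38 windows of 18S it was the 7th deepest in replicate 1, the 3rd deepest in replicate 2 and the 9th deepest in Input.

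On its 3′ side, the window from 351 to 400 was covered by 428 reads on average in replicate 1, by 222 in replicate 2 and by 7229 in Input, with a log2 fold change of -2.35 (edgeR adjusted p = 5.15e-05). On its 5′ side, the window from 251 to 300 had 595, 164 and 7602 reads, with a log2 fold change of -2.44 (edgeR adjusted p = 1.82e-05). The replicates ranked these neighbours differently: replicate 1 was deeper at 251 to 300 and replicate 2 at 351 to 400.

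The window with the lowest log2 fold change was 501 to 550, shortly after the hump. Its mean depth was 73.1 reads in replicate 1, 11.4 in replicate 2 and 5988 in Input. Replicate 2 was nearly empty here although Input was well covered. No position of the window passed 93 reads in replicate 1 or 15 in replicate 2. The log2 fold change was -5.44 (edgeR adjusted p = 3.42e-12), 43.4-fold under Input and the lowest among the 38 windows of 18S. The window rested on about 48.7 and 7.57 reads in eCLIP, and the replicates differed by more than in most windows, with log2 ratios of -5.02 and -6.05.

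The 2 windows that follow were nearly as low. The window from 551 to 600 had mean depths of 120, 27.0 and 6687 reads and a log2 fold change of -4.69 (edgeR adjusted p = 1.21e-10). The window from 601 to 650 had mean depths of 101, 28.5 and 6323 reads and a log2 fold change of -4.72 (edgeR adjusted p = 1.21e-10). In the standard numbering of human 18S the latter holds the loop of helix 18 at the decoding centre, the functional site of the ribosome that lies in this domain. Its replicates agreed closely, with log2 ratios of -4.64 and -4.80.

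The very 5′ end of 18S was poorly covered in all libraries. The first window, 1 to 50, had a mean depth of 12.9 reads in replicate 1, 3.68 in replicate 2 and 989 in Input. Both the eCLIP libraries and Input ranked it 37th of the 38 windows of 18S by depth. Its log2 fold change was -5.0 (edgeR adjusted p = 1.21e-10), from about 8.60 and 2.45 reads in eCLIP. A read of 75 nt cannot start before position 1, so fewer read starts can cover the positions nearest the end. The part of this in the low coverage was not tested. Input depth rose from 36 reads at position 1 to 195 at position 10 and 1825 at position 50. In eCLIP replicate 1 the values at those positions were 0, 3 and 28 reads, and in replicate 2 they were 0, 0 and 10.

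From position 51 to position 250 depth went from 29 to 342 reads in replicate 1, from 10 to 55 in replicate 2 and from 1884 to 6676 in Input. The windows from 51 to 100 and from 101 to 150, where Input held 2049 and 2426 reads, had 43.8 and 75.0 reads in replicate 1 and 16.8 and 21.4 in replicate 2. Their log2 fold changes were -4.07 (edgeR adjusted p = 6.69e-08) and -3.75 (adjusted p = 5.90e-07). Together with the first window these are the 3 windows of the domain with a mean Input depth under 4000. At 151 to 200 Input had 6888 reads against 152 and 28.1 in eCLIP, and the log2 fold change was -4.50 (edgeR adjusted p = 1.85e-10). Here and at 201 to 250 the replicates were farther apart than in the flanking windows, with log2 ratios of -4.16 and -4.95 at 151 to 200 and of -3.44 and -4.49 at 201 to 250. At 201 to 250 the eCLIP libraries had 259 and 39.6 reads and Input 7098 (edgeR log2 fold change -3.87, adjusted p = 6.47e-09).

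On the far slope of the hump, eCLIP depth declined from 293 and 138 reads at 401 to 450 to 125 and 48.2 at 451 to 500, while Input went from 5715 to 4571. Their log2 fold changes were -2.64 (edgeR adjusted p = 5.69e-05) and -3.71 (adjusted p = 3.20e-07). At the end of the domain coverage rose again. Position 667, the last of the domain, had 180, 39 and 7098 reads in replicate 1, replicate 2 and Input, and position 668, the first after it, had 191, 42 and 7271. The straddling window 651 to 700 had 279, 68.8 and 7023 reads and a log2 fold change of -3.49 (edgeR adjusted p = 7.12e-08).

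The replicates had like profiles across the domain. Between the eCLIP replicates the mean depths of the 13 windows had a Pearson's r of 0.931 and a Spearman's rho of 0.951. With Input, r was 0.662 and rho 0.846 in replicate 1, and r was 0.535 and rho 0.736 in replicate 2. These correlations are across windows that share reads and the same RNA, and are given as a description. On the 5S scale replicate 2 exceeded replicate 1 at 287 of 667 positions. Of these, 198 lay in 1 run from 289 to 486, on the hump and its far slope, and 75 in a run from 41 to 115.

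Steps in depth between adjacent positions show where reads began or ended. Of the 5 largest rises, 3 in replicate 1 and all 5 in replicate 2 lay in the hump. Steps are counted in reads and the hump was chosen for its depth in these libraries, so this is a description without a test. The 3 rises that were among the 5 largest of both replicates were those at positions 257, 258 and 319. Between 257 and 258 depth rose from 415 to 471 reads in replicate 1 and from 78 to 92 in replicate 2, while Input went from 7653 to 7649. The rise into 257 was 47 and 12 reads. The rise at 319 was 42 and 18 reads, with a change of 10 reads in Input. At 277 replicate 2 had its largest rise, 21 reads, and replicate 1 rose by 28. Input lay between 7628 and 7699 reads at these 4 positions, on its level stretches, where a limit on depth would hide any step, so its small changes there are no measure of steps in Input.

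Each of these rises was matched by a fall 75 nt later, the span of a read. Replicates 1 and 2 fell by 46 and 9 reads at 332, by 53 and 13 at 333, by 25 and 18 at 352 and by 33 and 16 at 394. Of the 5 largest falls, 4 were common to both replicates, and all 5 of each lay in the hump. Within the domain a rise and a fall correlated best at a distance of 75 nt in all 3 libraries, out of distances from 20 to 200 nt, with r = 0.404, 0.329 and 0.399 in replicate 1, replicate 2 and Input. This correlation is across positions and describes the read span. None of the steps was large against the whole: the rise into position 258 equals 2.82% of the domain's reads in replicate 1, and that at 277 equals 2.995% in replicate 2. No single step thus held more than 3% of the domain's reads.

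**Figure D3:**
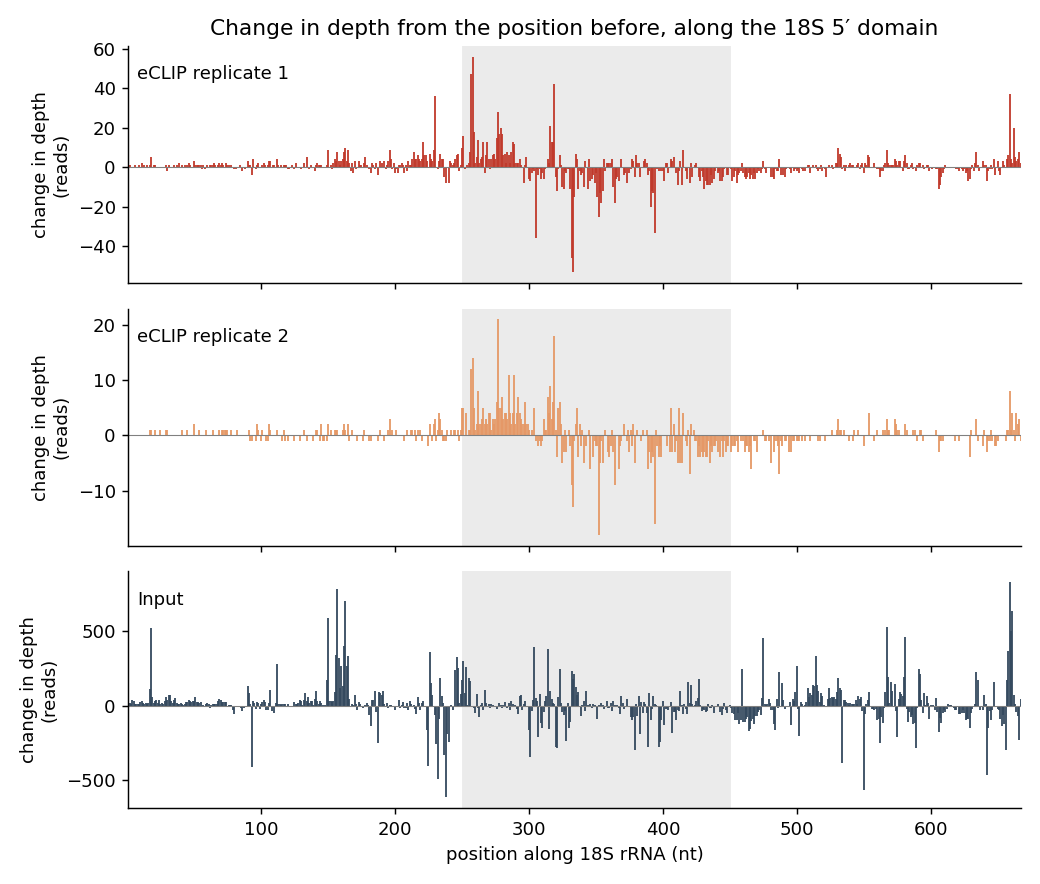
Change in read depth from the position before (vertical axes in reads, scaled separately per library) along the 18S 5′ domain (horizontal axis, nt), for eCLIP replicate 1, eCLIP replicate 2 and Input. The grey band marks 251 to 450, where the rises at 257, 258 and 319 and the falls at 332, 333 and 394 appear in both eCLIP libraries, while the largest recorded Input steps lie outside it, Input being level over much of the band.

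Input had its largest recorded steps elsewhere. Its 5 largest rises were at positions 659, 157, 163, 661 and 150, with 824, 780, 697, 634 and 584 reads, and none of its 5 largest rises or falls lay in the hump. Of these, only the rise at 659 was among the 5 largest of an eCLIP library, replicate 1, which rose by 37 reads there, from 95 to 132. Replicate 2 rose by 8 reads, from 18 to 26. At 157 and 163 Input rose by 780 and 697 reads, replicate 1 by 8 and 10 and replicate 2 by 1 and 1. The rise of replicate 1 at 230 was not shared in size: 36 reads in replicate 1, 3 in replicate 2 and a fall of 60 in Input.

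The domain was compared with the rest of 18S within each library, which needs no scale. The domain had 0.410 times the mean depth of positions 668 to 1869 in eCLIP replicate 1, 0.539 times in replicate 2 and 0.829 times in Input. The domain was the shallower part in all 3 libraries, and more so in both eCLIP libraries than in Input. On the log2 scale the difference between eCLIP and Input was -1.02 and -0.62, a mean of -0.82 ± 0.279 (SD, n = 2; exact permutation test over the 3 libraries, two-sided, p = 0.333, the smallest that 2 against 1 libraries can give). No p under 0.05 could be reached in this design. Of the depth of 18S, the domain held 18.5% (exact 95% interval 17.8% to 19.3%) in replicate 1 and 23.0% (21.5% to 24.5%) in replicate 2. Its share in Input was 31.5% (31.3% to 31.7%), and its share of the length is 35.7%. Input lay at 7500 reads or more at 43.9% of positions in the rest of 18S and at 23.5% in the domain. A limit on Input depth would act on more of the rest of 18S than of the domain, and its part in the difference was not tested.

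The depth of the hump was near the average of the rest of 18S in replicate 1 and Input and above it in replicate 2. Mean depth at 251 to 450 was 0.906 times that of positions 668 to 1869 in replicate 1, 1.40 times in replicate 2 and 1.06 times in Input. On the 5S scale the rest of 18S had a log2 ratio to Input of -2.38 ± 0.173 (SD, n = 2), beside -2.30 ± 0.269 for the hump. In the rest of 18S 21 of 24 windows were called lower and 3 were not (median log2 fold change -2.63), against 13 of 13 in the domain. The last 200 nt of 18S, which hold the m6A site of METTL5, had ratios of -1.78 and -2.38. Against these 200 nt the domain's difference between eCLIP and Input was -1.50 and -0.74 (exact permutation test, two-sided, p = 0.667). Set against 28S, the large-subunit rRNA, the domain had 0.0677 and 0.0597 times its mean depth in eCLIP and 0.896 times in Input. On the 5S scale 28S had log2 ratios to Input of 0.45 and 0.78. Over all rRNAs the highest depth of a position was 7465 in replicate 1, 7672 in replicate 2 and 7986 in Input. These maxima lay close together although the summed depths were 17574237, 6930845 and 42783485. A limit on depth could thus act on 28S in eCLIP as well as in Input. Its part in the ratios that involve 28S was not tested. The remaining rRNA besides 18S, 28S and 5S is 158 nt long and had -4.89 and -5.41, below the domain. Its mean depth was only 8.525 and 1.899 reads in eCLIP, against 640.8 in Input. Low ratios were thus not confined to 18S.

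**Figure D4:**
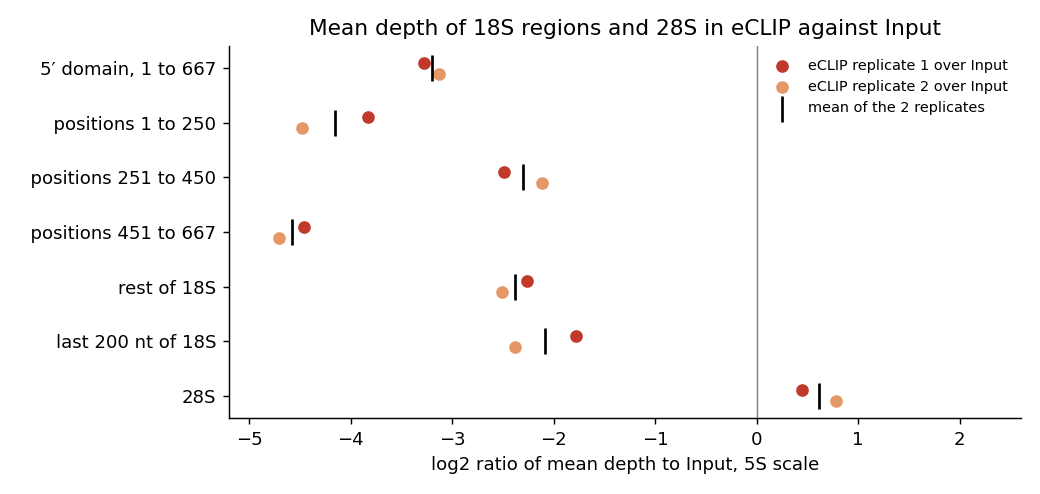
Log2 ratio of mean depth in eCLIP to Input on the 5S scale (horizontal axis) for the 5′ domain, its 3 stretches, the rest of 18S, the last 200 nt of 18S and 28S, with a point for each eCLIP replicate and a black bar for their mean. The domain lies at -3.28 and -3.13, its stretch from 251 to 450 near the rest of 18S, and 28S above 0. The remaining rRNA, 158 nt long, is not among these regions and had -4.89 and -5.41.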

How the data were processed

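The authors deposited unscaled counts per position of 4 rRNAs, per the file headers, which were treated as read depths. STAR and hg19 are named in the submitters' processing notes, with no version or role. The sources used here give neither duplicate removal nor any limit on depth. The columns IP1 and IP2 were taken as eCLIP_1 and eCLIP_2, and libraries were matched by rRNA and position. Per the labels, RNA was recovered from a gel above the size of the protein.

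Depth was divided by the 5S total of each library. Counts were summed in 50-nt windows, so a read counts at each position it covers, and tested with edgeR 4.0.16 (R 4.3.3; quasi-likelihood, 5S total as library size, filterByExpr, Benjamini-Hochberg, 0.05). DESeq2 1.42.0 was an alternative. All windows of the domain are reported. The positions named were the extremes, the ends and the 5 largest rises and falls of each library. The domain, windows and rules were chosen with earlier results of these data known. Runs of 4 windows, and the ratios to positions inside and outside them, were added after these values were seen. A count of 0 allows up to 3 reads.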

Additional observations from a re-analysis of the deposited data

How the results depend on the processing

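All windows wholly in the domain were called lower under every alternative run. These were other scales, DESeq2's Wald test, windows of 25 nt (26 of 26) and 100 nt (6 of 6) and windows cut at the domain's end (14 of 14). Middle positions, sums divided by the read span and no filter were also run. Chosen after seeing the data, a fit of the 17 windows of all rRNAs with mean Input under 4000 called the domain's 3 lower. Of all windows, 28.6% (middle positions) to 47.1% (Input under 4000) were called lower in these runs. DESeq2's Wald test called 65 of 147 lower and 43 higher. The highest adjusted p of the domain's windows was 0.044, with middle positions. The mean log2 ratio of the domain, -3.20, was -3.41 on library totals, -3.82 on that of 28S, -2.97 with TMM and -2.80 with DESeq2's size factors. A limit on depth could also act on the library and 28S totals, which was not tested. With the 5S scale kept, other choices moved the ratio as well. The ratio was -4.42 with median depth, since the hump carries most of the mean, and -4.01 over positions with Input under 4000. Chosen after seeing the data, it was -2.98 and -3.42 with the 5S reads of eCLIP at the lower and upper bounds of their intervals, -2.30 in the 4 deepest windows and -4.38 without them. Each replicate alone gave -3.28 or -3.13. The difference from the rest of 18S, -0.82, was -1.44 with median depth, -3.82 against 28S, -1.12 against the last 200 nt and, with 1 replicate left out, -1.02 or -0.62. With a single eCLIP library no residual degrees of freedom remain, so no window test was run. No paired analysis was possible because only 1 Input exists among these libraries, without a number to pair. Depth limits the first window and 501 to 550 in replicate 2 (about 2.45 and 7.57 reads), and the 108 reads on 5S limit its scale.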
